A study of Mus musculus with 12 samples.

Results

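Lipid-associated macrophage genes were described in bulk RNA-seq. of mouse osteoclasts as a set of 9 genes, Gpnmb, Spp1, Fabp4, Fabp5, Plin2, Lpl, Apoe, Cd9 and Cd63, out of the 47643 genes in the table of counts. The genes were chosen by name, with the differences between the groups in these same 12 libraries already known, so their levels and fold changes are given as a description without a p-value. The starting cells were bone marrow monocytes (BMMs) taken from WT mice of the BALB/c strain, which were differentiated with M-CSF and RANKL into osteoclasts and harvested on day 3. OCsCtr (n = 4 libraries) received no stimulus, OCsEo (n = 4) were cultured with 2 sorted eosinophils from IL-5tg/4get mice for 1 BMM, and OCsEoS (n = 4) received eosinophil supernatant at a 1:2 dilution. Both stimuli were present for the first 48 h and were then washed away before the medium was renewed on day 2. The donors of the eosinophils overexpress IL-5 and carry an IL-4 reporter, so the cells came from hyper-eosinophilic animals. The labels number the replicates without tying them to separate mice, so errors measure the spread between libraries.

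Lipid-associated macrophages are found in adipose tissue, atherosclerotic plaque and other sites of lipid overload, where the surface receptor TREM2 senses lipids and apoptotic cells and the macrophage takes up, stores and breaks down their fat. Their typical transcripts encode fatty acid carriers of the cytosol, the coat of lipid droplets, the enzyme and carrier protein of lipoprotein metabolism, the glycoproteins GPNMB and osteopontin, and tetraspanins of endosomes and the cell surface. Osteoclasts arise from the same myeloid precursors, and several of these genes, including the one for osteopontin, are also known from osteoclasts.

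Promoter windows are shown for the 3 genes that were higher in OCsEo past both cut-offs used throughout (adjusted p under 0.05 and absolute log2 fold change over 0.5) and had an entry in the RefSeq table (GRCm38.p6), namely Gpnmb, Spp1 and Plin2. They run from 250 bases before the annotated start to 20 bases into the transcript, 5′ to 3′ along the gene. Gpnmb lies on the plus strand (window chr6:49036268-49036537), Spp1 on the plus strand (chr5:104434861-104435130) and Plin2 on the minus strand (chr4:86670040-86670309). Capitals mark the AP-1 motif TGANTCA in Gpnmb and the E-box CACGTG in Plin2, and no searched motif was found for Spp1.
Gpnmb: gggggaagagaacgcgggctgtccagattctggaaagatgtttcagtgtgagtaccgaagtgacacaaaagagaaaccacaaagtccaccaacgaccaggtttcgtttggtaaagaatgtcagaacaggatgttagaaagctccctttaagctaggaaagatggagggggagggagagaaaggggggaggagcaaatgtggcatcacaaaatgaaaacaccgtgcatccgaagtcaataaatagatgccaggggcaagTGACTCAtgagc
Spp1: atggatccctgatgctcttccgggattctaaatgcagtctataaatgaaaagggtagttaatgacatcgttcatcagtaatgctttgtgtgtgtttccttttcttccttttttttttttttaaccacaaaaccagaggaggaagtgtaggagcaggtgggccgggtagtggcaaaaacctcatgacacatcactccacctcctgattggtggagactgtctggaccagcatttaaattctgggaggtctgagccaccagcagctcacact
Plin2: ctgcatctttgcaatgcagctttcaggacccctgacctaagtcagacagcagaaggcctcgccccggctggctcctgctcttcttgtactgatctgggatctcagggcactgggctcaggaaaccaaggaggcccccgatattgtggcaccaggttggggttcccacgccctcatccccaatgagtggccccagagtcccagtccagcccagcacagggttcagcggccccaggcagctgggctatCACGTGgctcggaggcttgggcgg
The AP-1 motif began at base 9 of the RefSeq transcript of Gpnmb and the E-box began 4 bases before the start of Plin2. Both strands of the full windows of 300 bases were searched, and 6 of the 9 genes had at least 1 window (9 windows in all), the exceptions being Fabp4, Fabp5 and Lpl. TGANTCA occurred in 7.81% of all 32851 windows and CACGTG in 7.15%. The M-box TCACATG, present in 3.99% of windows, and 2 copies of AGGTCA in the same direction with 1 base (0.0396%) or 4 bases (0.0152%) between them were not found in any window of the 9 genes. A match describes the letters of a window and is not evidence of binding.

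Libraries held 27837530 to 40327869 counted reads, and levels are given as CPM, the reads of a gene scaled to the size of its library, after TMM scaling. Of the 10 osteoclast markers, which include Acp5 and Ctsk, 7 were downregulated in each stimulated group, and their summed level was 28004 to 34072 CPM in OCsCtr, 17974 to 23033 CPM in OCsEo and 14819 to 21947 CPM in OCsEoS. The 9 macrophage markers summed to 308 to 426, 420 to 589 and 485 to 649 CPM, and 1 and 5 of the 8 tested were upregulated in OCsEo and OCsEoS. The 9 eosinophil markers summed to 56.4 to 73.4, 53.8 to 65.5 and 48.7 to 54.4 CPM, with Epx, Prg3, Ear1 and Ear6 at 0 in OCsEoS, while the 8 neutrophil markers summed to 296 to 430 CPM in OCsCtr, 430 to 569 in OCsEo and 342 to 409 in OCsEoS. All 8 neutrophil markers had a fold change above 0 in OCsEo, where 2 were upregulated. In OCsEoS 0 of them were called against OCsCtr, and 2 were called lower than in OCsEo. Siglecf, a surface receptor of eosinophils, averaged 0.428 ± 0.199, 2.94 ± 0.317 and 0.827 ± 0.454 CPM in the groups OCsCtr, OCsEo and OCsEoS (± SD, n = 4). It was the 1 of 4 tested eosinophil markers called higher in OCsEo, where Prg2 was at -0.01, Ear2 at -0.20 and Ccr3 at -0.29 on the log2 scale, and Prg2 was downregulated in OCsEoS at -2.74 (SE 0.56, adjusted p = 0.00136). Stromal and endothelial markers were low in all groups, at 12.4 to 65.7 and 6.41 to 13.2 CPM. The part of these markers in the values of the 9 genes was not tested, and in bulk RNA fewer cells of a type and less RNA per cell cannot be told apart. The 6 adipocyte markers summed to at most 0.498 CPM in any library, and Adipoq, Lep and Retn were at 0 in all 12.

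All 9 genes passed the filter on low counts, as did 13681 genes in all. Together they took 0.431 to 0.478% of the reads of each OCsCtr library, 0.583 to 0.628% in OCsEo and 0.450 to 0.466% in OCsEoS. The share was therefore higher in every OCsEo library than in any library of the other groups, and the ranges of OCsCtr and OCsEoS overlapped. Gpnmb alone took 0.0976 to 0.141% of the reads in OCsCtr, 0.214 to 0.247% in OCsEo and 0.119 to 0.139% in OCsEoS, so this sum depends strongly on 1 gene. In OCsEo, 5 of the 9 genes were higher than in OCsCtr past both cut-offs and 0 were lower, among 3.27% of all tested genes called higher and 2.61% called lower (5.88% in all). In OCsEoS the counts were 2 higher and 0 lower, among 3.63% and 4.11% of all genes (7.73% in all). Between the stimulated groups 2 genes had lower levels with supernatant than with eosinophils and 0 had higher ones, where 0.307% and 0.0731% of all genes were called (0.38% in all). Because these contrasts were known when the genes were chosen, nothing is read from the counts. The median log2 fold change of the 9 genes was 0.51 in OCsEo and 0.20 in OCsEoS, beside -0.01 over all tested genes in both, and -0.31 for OCsEoS against OCsEo, beside 0.00 over all tested genes.

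**Figure D1:**
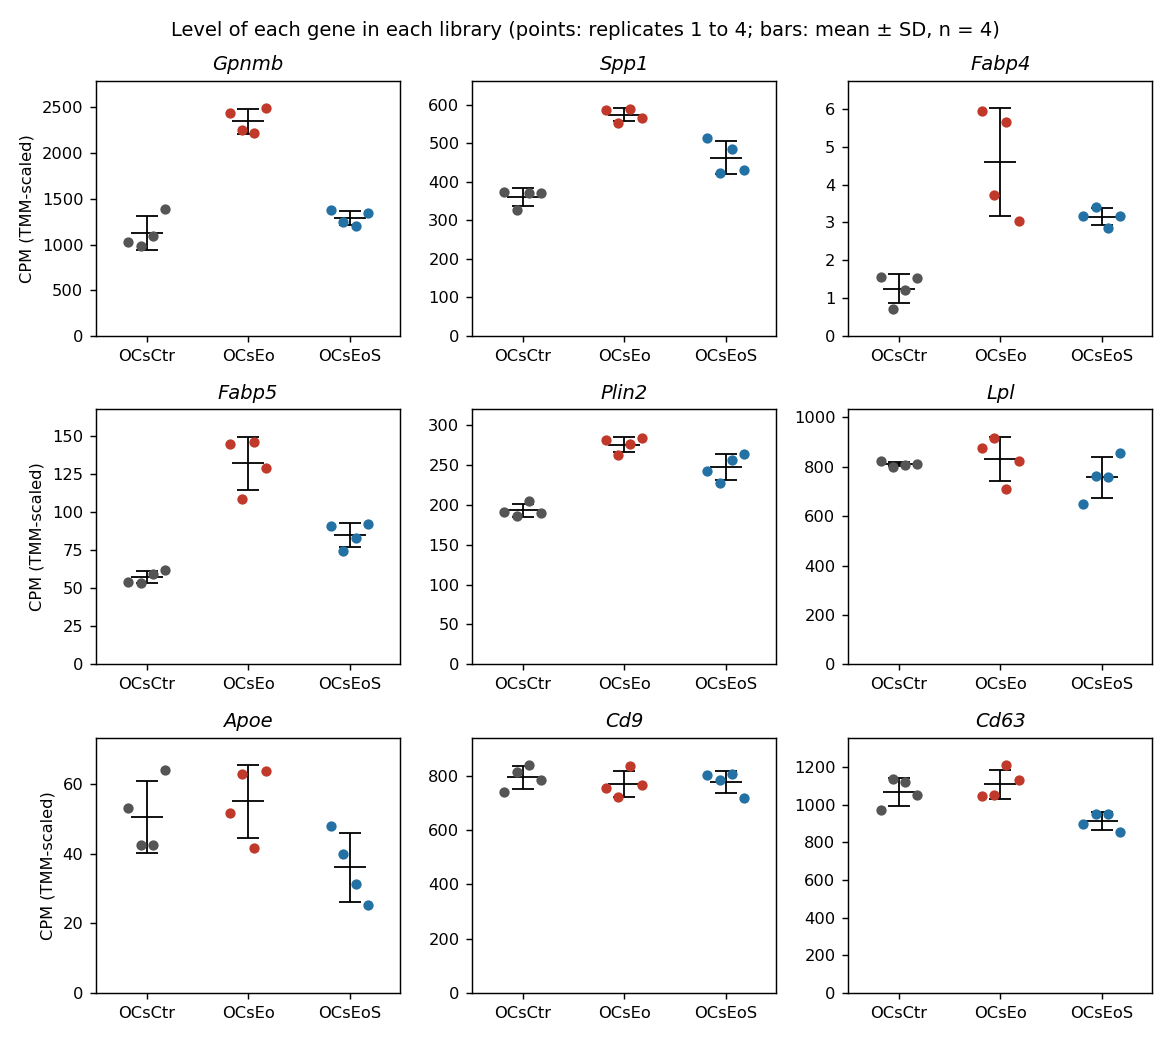
CPM (linear axes starting at 0) of the 9 genes in each of the 12 libraries, with 1 panel per gene, points for replicates 1 to 4 of each group and bars for the mean ± SD. Gpnmb, Spp1, Fabp4, Fabp5 and Plin2 sat higher in all 4 OCsEo libraries than in all 4 OCsCtr libraries, whereas the groups overlapped for Lpl, Apoe, Cd9 and, between OCsCtr and OCsEo, Cd63.

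Gpnmb, which encodes a transmembrane glycoprotein of lysosomes and the cell surface that osteoclasts and lipid-laden macrophages both express, was the member that most separated co-culture from supernatant. Its 4 OCsCtr libraries held 1023, 985, 1095 and 1392 CPM. The OCsEo libraries held 2436, 2248, 2215 and 2489.7 CPM and the OCsEoS libraries 1373, 1242, 1205 and 1343 CPM. Every OCsEo library was above every other library, while replicate 4 of OCsCtr was above all 4 OCsEoS libraries. The group means, in the same order, were 1124 ± 185, 2347 ± 136 and 1291 ± 79.8 CPM (SD, n = 4). This gave a log2 fold change of 1.06 (SE 0.08, 95% interval 0.89 to 1.24) in OCsEo and of 0.20 (SE 0.08, 0.03 to 0.37) in OCsEoS. Against OCsEo, OCsEoS was lower by a log2 fold change of -0.86 (SE 0.08, -1.04 to -0.69). The gene covers chr6:49036546-49070929 on the plus strand, and its exons add up to 6514 bases.

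Spp1 encodes osteopontin, a secreted phosphoprotein of bone matrix that binds integrins and CD44 on osteoclasts and macrophages. Its level was 373, 325, 371 and 371 CPM in OCsCtr, 586, 553, 588 and 566 CPM in OCsEo and 512, 422, 483 and 431 CPM in OCsEoS. The 3 groups formed separate steps, with each OCsEoS library above all of OCsCtr and below all of OCsEo. The group means were 360.2 ± 23.2, 573 ± 16.8 and 462 ± 43.2 CPM. The log2 fold change was 0.67 (SE 0.07) in OCsEo and 0.36 (SE 0.07, 95% interval 0.22 to 0.50) in OCsEoS, the latter under the cut-off of 0.5. OCsEoS differed from OCsEo by -0.31 on the log2 scale (SE 0.07, -0.45 to -0.18). Spp1 lies at chr5:104435118-104441050 on the plus strand, and the gene Gm42793, which overlaps it on the same strand, had 0 counts in every library.

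Fabp4 encodes the fatty acid carrier of adipocytes and macrophages also known as aP2, and was by far the least abundant of the 9 genes. It was at 1.56, 0.712, 1.21 and 1.52 CPM in OCsCtr, at 5.95, 3.72, 5.64 and 3.05 CPM in OCsEo and at 3.17, 3.42, 2.85 and 3.18 CPM in OCsEoS. All stimulated libraries were above all OCsCtr libraries, and OCsEo and OCsEoS overlapped because replicate 4 of OCsEo was below 3 of the OCsEoS libraries. With means of 1.25 ± 0.393, 4.59 ± 1.42 and 3.15 ± 0.232 CPM, the log2 fold change was 1.88 (SE 0.29, 95% interval 1.27 to 2.49) in OCsEo and 1.34 (SE 0.29, 0.73 to 1.94) in OCsEoS. The difference between the stimulated groups was -0.54 (SE 0.27), with an interval of -1.12 to 0.03 that included 0. The gene lies at chr3:10204088-10208576 on the minus strand.

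Fabp5, the epidermal fatty acid carrier that macrophages express alongside Fabp4, was at 54.4, 53.6, 59.4 and 62.1 CPM in OCsCtr, at 145, 109, 146 and 129 CPM in OCsEo and at 90.7, 74.8, 83.1 and 92.2 CPM in OCsEoS. As with Spp1, no 2 groups overlapped and OCsEoS stood between the others. The means were 57.4 ± 4.05, 132 ± 17.4 and 85.2 ± 7.99 CPM. The log2 fold change was 1.20 (SE 0.09, 95% interval 1.01 to 1.40) in OCsEo and 0.57 (SE 0.09, 0.38 to 0.76) in OCsEoS, and OCsEoS was below OCsEo by -0.63 (SE 0.09, -0.82 to -0.44). Fabp5 lies at chr3:10012548-10016607 on the plus strand.

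Counts of Fabp5 are uncertain in 1 respect, since pseudogenes carry nearly the same sequence. Gm6166 matched a Fabp5 transcript with 98.3% identity over 409 bases and held 1103 to 3192 reads per library, equal to 56.0 to 70.3% of those of Fabp5. Gm14328, with 97.3% identity over 408 bases, held 39 to 139 reads. Gm6166 was also the gene whose pattern over the 12 libraries was nearest to that of Fabp5, with log2 fold changes of 1.07 in OCsEo and 0.54 in OCsEoS. When the reads of both pseudogenes were added to Fabp5, a step chosen after the data were seen, the group means were 97.0 ± 6.15 (OCsCtr), 215 ± 24.4 (OCsEo) and 143 ± 13.2 CPM (OCsEoS). The log2 fold changes were then 1.15, 0.56 and, between the stimulated groups, -0.59 (SE 0.08 each).

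Plin2 encodes perilipin 2, the coat protein of lipid droplets in most cells outside fat tissue. The libraries held 191, 186, 204 and 190.1 CPM in OCsCtr, 280.4, 262, 275 and 283 CPM in OCsEo and 242, 228, 256 and 263 CPM in OCsEoS. Both stimulated groups were above OCsCtr without overlap, and they overlapped with each other in that the highest OCsEoS library passed the lowest OCsEo library. Means of 193 ± 7.87, 275 ± 9.66 and 247 ± 15.8 CPM gave a log2 fold change of 0.51 (SE 0.06, 95% interval 0.39 to 0.64) in OCsEo, just past the cut-off, and of 0.36 (SE 0.06, 0.24 to 0.48) in OCsEoS. Without replicate 4 of OCsEo the first of these was 0.4989 and no longer past the cut-off. The difference between the stimulated groups was -0.15 (SE 0.06, -0.28 to -0.03). Plin2 lies at chr4:86648386-86670060 on the minus strand.

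Lpl encodes lipoprotein lipase, the secreted enzyme that frees fatty acids from circulating triglyceride. It was at 822, 800.0, 806 and 811 CPM in OCsCtr, at 876, 915, 708 and 823 CPM in OCsEo and at 650.5, 760.4, 758 and 856 CPM in OCsEoS. The OCsCtr libraries lay within a narrow band that the libraries of both stimulated groups spanned on either side. The means were 809.6 ± 9.14, 830 ± 89.9 and 756 ± 84.0 CPM. Log2 fold changes were 0.04 in OCsEo (SE 0.08, 95% interval -0.12 to 0.20), -0.10 in OCsEoS (SE 0.08, -0.26 to 0.06) and -0.14 between the stimulated groups (SE 0.08, -0.29 to 0.02), so that each interval included 0. Lpl lies at chr8:68880491-68907448 on the plus strand.

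Apoe, the gene of the apolipoprotein that carries cholesterol out of macrophages, varied more between replicates than any other member except Fabp4. OCsCtr held 53.1, 42.4, 42.6 and 64.1 CPM, OCsEo 51.8, 63.0, 41.8 and 63.8 CPM and OCsEoS 48.2, 39.9, 31.4 and 25.3 CPM. The lowest values were in OCsEoS, but its highest library was above 2 of OCsCtr and 1 of OCsEo. Mean levels were 50.6 ± 10.3, 55.1 ± 10.4 and 36.2 ± 9.98 CPM. The log2 fold change was 0.12 (SE 0.17, 95% interval -0.23 to 0.48) in OCsEo and -0.48 (SE 0.17, -0.84 to -0.13) in OCsEoS, and OCsEoS was below OCsEo by -0.61 (SE 0.17, -0.97 to -0.25), none of which passed both cut-offs. In OCsEoS this depended on single libraries and on the processing. The log2 fold change was -0.56 without replicate 2 or 3 of OCsCtr, -0.64 without replicate 1 of OCsEoS and -0.53 without replicate 2 of OCsEoS, each past both cut-offs. With the gene length trend taken out it was -0.56 and also passed. The difference between the stimulated groups passed with no filter on low counts (-0.61). The gene lies at chr7:19696109-19699188 on the minus strand.

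Cd9 encodes a tetraspanin of the cell surface that takes part in the fusion of myeloid cells. Its level was 740.4, 815, 839 and 786 CPM in OCsCtr, 755, 724, 838 and 765 CPM in OCsEo and 803, 783, 807 and 718 CPM in OCsEoS. The groups overlapped across nearly their whole range. Means of 795 ± 42.5, 770.3 ± 48.4 and 778 ± 41.2 CPM gave log2 fold changes of -0.05 in OCsEo (95% interval -0.17 to 0.08), -0.03 in OCsEoS (-0.15 to 0.09) and 0.01 between the stimulated groups (-0.11 to 0.14), with an SE of 0.06 each. These intervals leave out a change as large as the cut-off of 0.5 in either direction. Cd9 lies at chr6:125460266-125494791 on the minus strand, where the antisense gene Gm28809 overlaps it with 2 to 48 reads per library.

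Cd63, which encodes a tetraspanin of late endosomes, lysosomes and exosomes, was at 971, 1136, 1118 and 1052 CPM in OCsCtr, at 1044, 1053, 1209 and 1129.6 CPM in OCsEo and at 896, 950.1, 952 and 855 CPM in OCsEoS. All 4 OCsEoS libraries were below all other libraries, and OCsCtr and OCsEo overlapped. The means were 1069 ± 74.7, 1109 ± 77.0 and 913 ± 46.5 CPM. Log2 fold changes were 0.05 (SE 0.06, 95% interval -0.08 to 0.18) in OCsEo and -0.23 (SE 0.06, -0.36 to -0.10) in OCsEoS, with -0.28 (SE 0.06, -0.41 to -0.15) between the stimulated groups. The pseudogene Cd63-ps matched Cd63 with 98.0% identity over 858 bases and held 2816 to 5310 reads per library, or 10.9 to 12.9% of those of Cd63. Adding its reads gave log2 fold changes of 0.06, -0.22 and -0.28. Cd63 lies at chr10:128908919-128912816 on the plus strand.

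In the order of effects, the fatty acid carriers stood first in OCsEo, and the plot of differences sets the 9 genes side by side in the 3 comparisons. Log2 fold changes ran from -0.05 for Cd9 to 1.88 for Fabp4 in OCsEo and from -0.48 for Apoe to 1.34 for Fabp4 in OCsEoS. In OCsEo, 5 genes were higher in every library than in every OCsCtr library and 0 were lower, beside 10.5% and 10.9% of all tested genes. In OCsEoS, 4 genes (Fabp4, Fabp5, Spp1 and Plin2) were higher throughout and 1 (Cd63) was lower throughout, beside 12.6% and 13.1% of all genes. Between the stimulated groups, Gpnmb, Fabp5, Spp1 and Cd63 were lower in every OCsEoS library than in every OCsEo library and 0 genes were higher, beside 3.06% and 2.41% of all genes. The 2 stimulated groups were compared with the same OCsCtr libraries, so their values are set side by side without a measure of agreement.

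**Figure D2:**
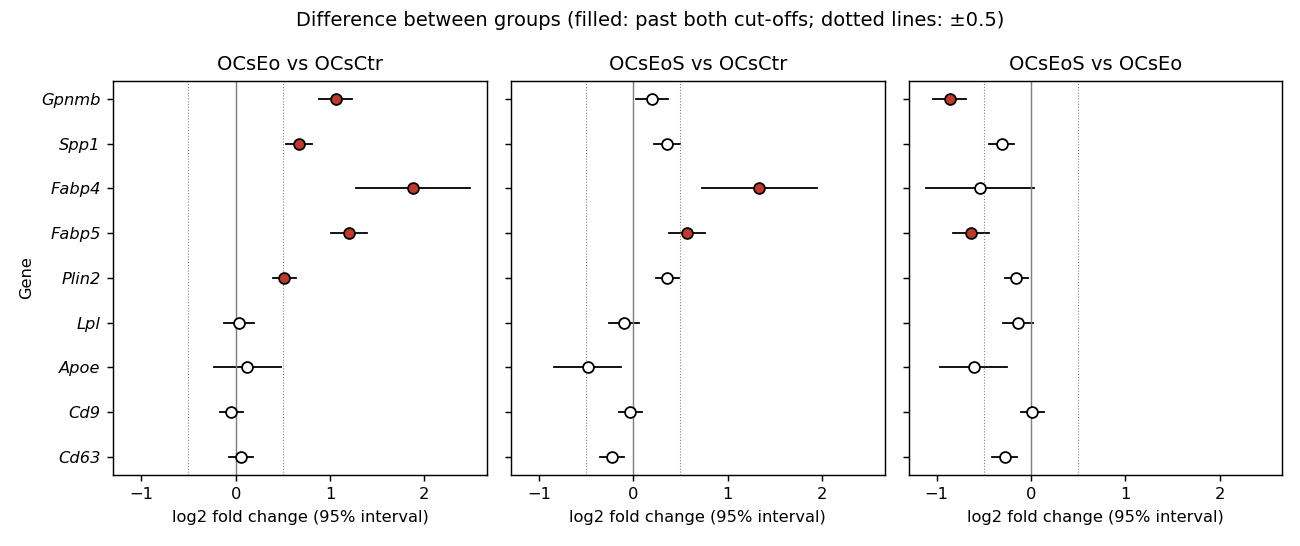
Log2 fold changes (points) with 95% intervals (lines) of the 9 genes for OCsEo against OCsCtr, OCsEoS against OCsCtr and OCsEoS against OCsEo, with points filled where both cut-offs were passed. Gpnmb stood at 1.06 in OCsEo but at 0.20 in OCsEoS, while Fabp4 was at 1.88 and 1.34.

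The scatter among replicates differed between the genes. The coefficient of biological variation fitted by edgeR was 6.61% for Plin2, 6.88% for Cd9, 7.19% for Cd63, 7.34% for Spp1, 8.46% for Lpl, 9.11% for Gpnmb, 9.42% for Fabp5, 16.9% for Apoe and 26.3% for Fabp4, with a median of 14.0% over all tested genes. Fabp4, the gene with the widest scatter, rested on 24 to 220 reads per library.

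Levels of different genes were compared per length, as TPM, in which the reads of a gene are divided by its deposited length before scaling. In OCsCtr, Cd63 was the most abundant of the set at 2063 ± 103 TPM, the 65th highest of 13681 genes, followed by Cd9 at 774 ± 29.9 TPM. Spp1 at 436 ± 35.9 TPM and Gpnmb at 344 ± 57.6 TPM came next and overlapped between libraries. Lpl followed at 237 ± 7.99 TPM, Plin2 at 109 ± 5.36, Apoe at 47.2 ± 10.1, Fabp5 at 32.0 ± 2.39 and Fabp4 at 0.558 ± 0.184 TPM, the 11984th of 13681, and among these neighbours no libraries overlapped.

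In OCsEo the order changed around Gpnmb and Fabp5. Gpnmb reached 681 ± 62.1 TPM, the 246th highest gene against the 462nd in OCsCtr, and overlapped with Cd9 at 710.3 ± 21.8 TPM and Spp1 at 656 ± 23.9 TPM. Fabp5 at 69.8 ± 8.29 TPM stood above Apoe at 48.9 ± 10.7 TPM in every library. In OCsEoS, Gpnmb was back below Spp1, at 379 ± 28.2 against 536 ± 46.5 TPM, and Fabp5 at 45.7 ± 4.32 TPM overlapped with Apoe at 32.4 ± 9.26 TPM. The first place of Cd63 rests on its deposited length of 1031 bases, since the GENCODE vM21 annotation gives its longest transcript 2894 bases. With longest transcripts as lengths, Cd9 led in OCsCtr at 1136 TPM and Cd63 followed at 648 TPM. The order of Gpnmb and Spp1 rests on the length as well, since with longest transcripts Gpnmb averaged above Spp1 in OCsCtr (533 against 419.9 TPM), OCsEo (1058 against 633 TPM) and OCsEoS (587 against 516 TPM). The gap between Fabp5 and Apoe in OCsEo also rests on the length. With longest transcripts they averaged 67.8 ± 8.11 and 65.5 ± 14.2 TPM there, and 44.3 ± 4.24 and 43.3 ± 12.3 TPM in OCsEoS. TPM with the pseudogene reads added to Fabp5 were not computed.

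**Figure D3:**
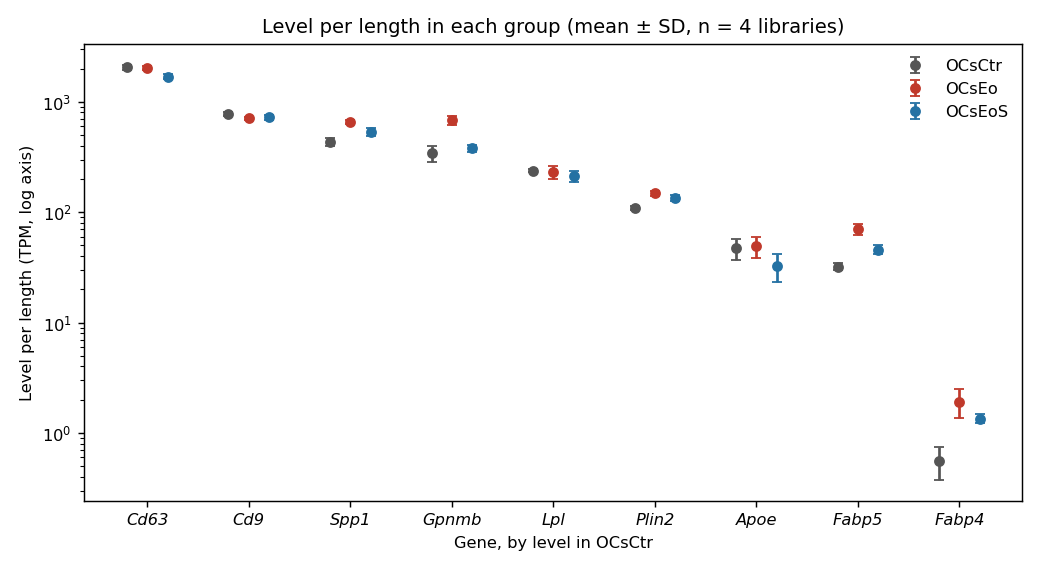
Level per length of the 9 genes in TPM on a log axis, as mean ± SD of 4 libraries in each group, with genes ordered by their level in OCsCtr. Gpnmb moved from 344 TPM in OCsCtr to 681 TPM in OCsEo and 379 TPM in OCsEoS, and Fabp4 stayed at the bottom with 0.558, 1.92 and 1.34 TPM.

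To place the 9 genes in their pathways, 111 other genes in 10 lists of lipid handling and partner genes were tested in the same fit, with adjusted p-values of edgeR's quasi-likelihood test over all 13681 genes. Of the 100 genes that passed the filter, 12 were upregulated and 2 downregulated in OCsEo, beside 3.27% and 2.61% of all genes tested. In OCsEoS 9 were upregulated and 5 downregulated, beside 3.63% and 4.11% of all genes. The lists were chosen with earlier results of these data known, so no enrichment is read from these counts. Between the stimulated groups 0 passed both cut-offs, and 4 had an adjusted p under 0.05 alone (Ctsb, Ctsd, Nceh1 and Cd68, all lower in OCsEoS). The median log2 fold change of the lists was -0.04 in OCsEo and -0.06 in OCsEoS. The plot of gene lists shows each of the tested genes.

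**Figure D4:**
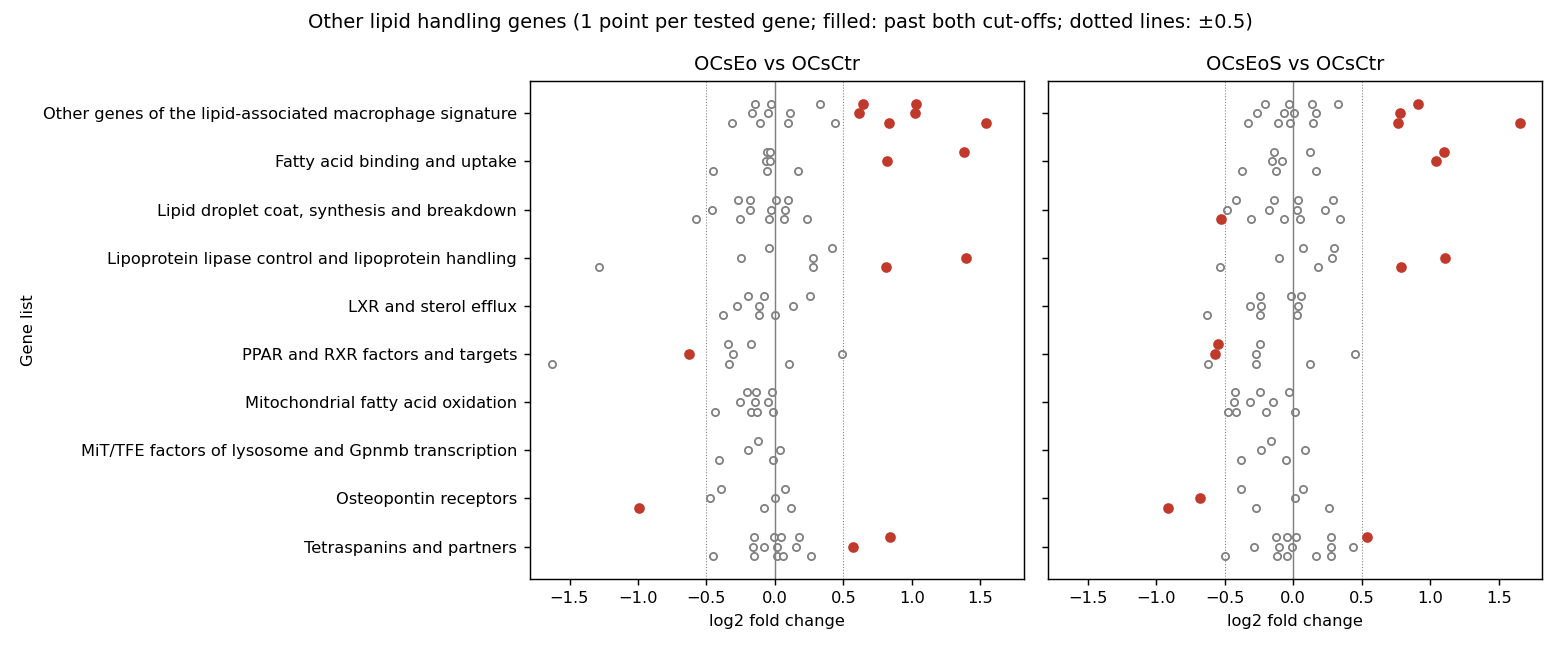
Log2 fold changes of the 100 tested genes in 10 lists for OCsEo (left) and OCsEoS (right) against OCsCtr, with 1 point per gene, filled where both cut-offs were passed, and dotted lines at ±0.5. Filled points on the right side stand mostly in the lists of signature genes, fatty acid carriers and lipoprotein handling, and the rows of LXR, fatty acid oxidation and MiT/TFE genes hold none.

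Of the 16 other genes of the signature, 6 were upregulated in OCsEo and 4 in OCsEoS, and 0 were downregulated in either. Lgals1, which encodes galectin-1, had a log2 fold change of 0.83 (SE 0.07, adjusted p = 1.32e-07) in OCsEo and 0.91 (SE 0.07, adjusted p = 8.2e-08) in OCsEoS. The lysosomal protease gene Ctsl was at 1.03 (SE 0.09, adjusted p = 3.72e-07) and 0.77 (SE 0.09, adjusted p = 9.95e-06). Trem2, the lipid-sensing receptor, was at 1.02 and 0.78 (SE 0.06 each), and Cd36, a scavenger receptor for fatty acids and oxidised lipoproteins, at 1.54 and 1.66 (SE 0.07 each), both called in both groups.

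Ctsb and Ctsd, genes of lysosomal cathepsins, were upregulated in OCsEo, at 0.65 (SE 0.07, adjusted p = 3.27e-06) and 0.61 (SE 0.05, adjusted p = 3.72e-07). In OCsEoS they were at 0.17 (adjusted p = 0.0868) and 0.15 (adjusted p = 0.0535). The difference between the stimulated groups was -0.48 for Ctsb (SE 0.07, adjusted p = 0.00123) and -0.46 for Ctsd (SE 0.05, adjusted p = 0.000107), short of the fold change cut-off. The other signature genes were not called, with Lipa at 0.44 (adjusted p = 7.22e-05) and Lgals3 at 0.33 (adjusted p = 0.000247) in OCsEo, and Tyrobp, the adaptor of TREM2, at 0.11 (adjusted p = 0.234). In OCsEo, Cst7 was at -0.31 (adjusted p = 0.17), Clec7a at -0.17 (adjusted p = 0.507), Itgax at -0.14 (adjusted p = 0.569) and Axl at -0.11 (adjusted p = 0.636). Ctsz and Cd68 were at -0.05 and -0.03 there. Of the 16 genes, 10 had a fold change above 0 in OCsEo and 9 in OCsEoS. With supernatant, Lipa was at 0.33 (adjusted p = 0.000624), and Cd68 at -0.33 (adjusted p = 0.000616) and Ctsz at -0.26 (adjusted p = 0.001) were lower in every library than in every OCsCtr library, all short of the fold change cut-off.

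Among fatty acid carriers beyond the 2 members, Fabp3 and Fabp7 were both upregulated. Fabp7 had a log2 fold change of 0.81 (SE 0.11, adjusted p = 5.2e-05) in OCsEo and 1.04 (SE 0.11, adjusted p = 4.54e-06) in OCsEoS. Fabp3, with 28 to 149 reads per library, was at 1.38 (SE 0.32, adjusted p = 0.0048) and 1.10 (SE 0.32, adjusted p = 0.0169), and its call in OCsEoS was lost without replicate 2 of OCsCtr (0.93) or replicate 1 of OCsEoS (0.84). Fabp2, Fabp6, Fabp9, Fabp12 and Pmp2 had 0 reads in every library and Fabp1 at most 5. The other 7 tested genes of uptake and activation were not called in either group.

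Around Plin2, 13 of 17 droplet genes were tested and 0 were called in OCsEo. Plin3, the other perilipin with substantial counts, was at -0.46 (SE 0.08, adjusted p = 0.000486) in OCsEo, short of the fold change cut-off, and was downregulated in OCsEoS at -0.53 (SE 0.08, adjusted p = 0.000102). The latter call was lost without replicate 3 of OCsCtr (-0.47), replicate 1 of OCsEoS (-0.49) or replicate 4 of OCsEoS (-0.47). Plin2 and Plin3 thus had fold changes of opposite sign in both groups. Plin4 had 0 reads in every library, Plin1 at most 14 and Plin5 at most 18.

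Around Lpl, the inhibitor gene Angptl4 was upregulated at low level, from 1.28 ± 0.603 CPM in OCsCtr to 3.37 ± 0.686 in OCsEo and 2.76 ± 0.446 in OCsEoS. The log2 fold changes of Angptl4 were 1.39 (SE 0.33, adjusted p = 0.00527) in OCsEo and 1.11 (SE 0.33, adjusted p = 0.0183) in OCsEoS, the latter lost without replicate 3 (0.98) or 4 (0.89) of OCsCtr. Sort1, a sorting receptor that binds lipoprotein lipase, was at 0.81 (SE 0.20, adjusted p = 0.00808) and 0.79 (SE 0.20, adjusted p = 0.00775). Gpihbp1, the endothelial anchor of the lipase, had 0 reads in all libraries, and Lmf1, its maturation factor, was at -0.25 (adjusted p = 0.136) and -0.11 (adjusted p = 0.553). Around Apoe, Apoc1, Apoc2 and Apoc4 of the same gene cluster also had 0 reads.

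Apoe is a textbook target of the LXR factors, and 0 of the 9 genes in the LXR list were called in either group, with Abca1 at -0.38 (SE 0.24, adjusted p = 0.325) in OCsEo and -0.63 (SE 0.24, adjusted p = 0.0682) in OCsEoS. Abca1 passed both cut-offs in OCsEoS without replicate 1 of OCsCtr (-0.76), replicate 3 of OCsEo (-0.63) or replicate 2 of OCsEoS (-0.85), with no filter on low counts (-0.63) and with a replicate block (-0.64). Srebf1 was at -0.24 (adjusted p = 0.0217) in OCsEoS. Lpcat3 was at -0.28 (adjusted p = 0.0174) in OCsEo and -0.24 (adjusted p = 0.0334) in OCsEoS. These values, and that of Nr1h2 in OCsEoS, were short of the fold change cut-off alone. Fabp4 and Plin2 are targets of PPAR factors, and Pparg, at 9.36 ± 1.27 CPM in OCsCtr, was at 0.49 (SE 0.14, adjusted p = 0.0231) in OCsEo and 0.45 (SE 0.14, adjusted p = 0.0277) in OCsEoS, short of the cut-off of 0.5. Without replicate 1 or 3 of OCsCtr, or 2 or 4 of OCsEo, the value in OCsEo was 0.51 to 0.54 and passed, and in OCsEoS it passed without replicate 3 of OCsCtr (0.50) or replicate 4 of OCsEoS (0.53).

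The co-activator gene Ppargc1b was downregulated, at -0.63 (SE 0.12, adjusted p = 0.00147) and -0.57 (SE 0.12, adjusted p = 0.00218), the second call being lost without replicate 4 of OCsEoS (-0.47). Of the 10 genes of mitochondrial fatty acid oxidation 0 were called, and 0 in OCsEo and 1 in OCsEoS had a fold change above 0, with medians of -0.14 and -0.28 beside -0.01 over all genes. In OCsEoS, Etfdh (-0.48, adjusted p = 0.000339), Acadl (-0.43, adjusted p = 0.00195) and Hadha (-0.42, adjusted p = 0.00057) were short of the fold change cut-off alone. So were Acadvl (-0.42, adjusted p = 0.000626), Acadm (-0.31, adjusted p = 0.00067) and Hadhb (-0.25, adjusted p = 0.00756). Each of these was lower in every OCsEoS library than in every OCsCtr library. In OCsEoS, Acadl passed with the gene length trend taken out (-0.52), and Etfdh without replicate 1 of OCsCtr (-0.51) or replicate 2 of OCsEoS (-0.53). In OCsEo, Etfdh was at -0.44 (adjusted p = 0.000993) and Acadvl at -0.25 (adjusted p = 0.0278), and Etfdh passed without replicate 2 of OCsEo (-0.52). The MiT/TFE factors, known regulators of Gpnmb, were not called in either group. The log2 fold change of Mitf was -0.12 (adjusted p = 0.423) with eosinophils and -0.16 (adjusted p = 0.237) with supernatant. For Tfeb the values were 0.04 (adjusted p = 0.813) with eosinophils and -0.06 (adjusted p = 0.707) with supernatant. Tfe3 was at -0.02 (adjusted p = 0.921) with eosinophils and 0.08 (adjusted p = 0.524) with supernatant. Tfec stood lower in every stimulated library than in every OCsCtr library, at -0.41 (SE 0.08, adjusted p = 0.00153) with eosinophils and -0.38 (SE 0.08, adjusted p = 0.00207) with supernatant, short of the fold change cut-off.

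The integrin that binds osteopontin had fold changes of opposite sign to those of Spp1. Itgb3, the beta chain of its main osteoclast receptor, was downregulated in both groups, at -0.99 and -0.91 (SE 0.09 each). Its partner Itgav was downregulated in OCsEoS at -0.68 (SE 0.12, adjusted p = 0.000325). In OCsEo Itgav was at -0.48 (SE 0.12, adjusted p = 0.00727), short of the fold change cut-off, and it passed without replicate 1 of OCsCtr (-0.52) or replicate 2 or 4 of OCsEo (-0.50 each). Cd44 was at 0.12 (adjusted p = 0.191) and 0.01 (adjusted p = 0.911).

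Of 15 tetraspanins and partner genes beside Cd9 and Cd63, 2 were upregulated in OCsEo and 1 in OCsEoS. Cd81, a close relative of Cd9, was at 0.57 (SE 0.09, adjusted p = 0.000327) in OCsEo and 0.44 (SE 0.09, adjusted p = 0.00217) in OCsEoS, the second short of the fold change cut-off. Tspan13 was at 0.84 (SE 0.16, adjusted p = 0.000983) and 0.54 (SE 0.16, adjusted p = 0.0167), with the second call lost without replicate 3 of OCsCtr (0.46) or replicate 3 of OCsEoS (0.44).

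For each of the 9 genes, the genes with the most similar pattern were sought among 10622 others by the root-mean-square difference of centred log2 CPM over the 12 libraries. Nearest to Gpnmb were Vat1 (0.161), Syngr1 (0.173) and Gstm1 (0.185), against a standard deviation of 0.503 for Gpnmb itself. Syngr1 also came second for Fabp5 (0.133), behind Gm6166 (0.0925) and ahead of Maoa (0.148). Spp1 had Basp1 (0.0709), Sash3 (0.0743) and Prdx1 (0.103) at its side.

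The remaining members had other neighbours. Fabp4, with a standard deviation of 0.885, was matched less closely, by Serpinb9b (0.365), Mgst1 (0.376) and Mcoln2 (0.403). For Plin2 the nearest were Tradd (0.0607), Rnh1 (0.0608) and Pirb (0.0670), and for Apoe they were Mxd1 (0.171), Zfp318 (0.176) and Vwf (0.184). Cd9, Cd63 and Lpl varied little (standard deviations 0.0768, 0.152 and 0.134), so that the nearest genes, among them Tsg101 for Cd9 and Cd63-ps for Cd63, are mainly others that varied little.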

How the data were processed

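The raw counts deposited for 12 libraries (3 groups of 4) were analysed without prior scaling. The authors cleaned paired-end reads (fastp is named in the submitters' processing notes), aligned them to mm10 with HISAT2 2.0.5 and counted reads per gene with featureCounts. The annotation release and the use of strand in counting are not given in the sources used here. Gene lengths are the deposited values. All 12 count columns were mapped to samples by their names, with no other column of per-sample values present.

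Analyses used R 4.3.3 with edgeR 4.0.16, and DESeq2 1.42.0 as an alternative. Genes were filtered with filterByExpr (minimum count 10), scaled by TMM and fitted in 1 quasi-likelihood model of 3 groups. Adjusted p-values are Benjamini-Hochberg values over 13681 genes, and calls needed a value under 0.05 together with a log2 fold change beyond 0.5 in either direction, as in the study's methods. TPM were computed from counts and deposited lengths. Of the gene identifiers, 47224 (99.1%) were in GENCODE vM21, from which overlaps and transcript lengths were taken. Transcripts were compared with BLAST+ 2.17.0 (at least 95% identity over at least 300 bases). Levels of markers and lists are sums of CPM. The precision of a low count is limited by depth, with 3 reads in a library equal to 0.0769 to 0.107 CPM.

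The 9 genes, the lists and the markers were chosen with earlier results of these data known. Genes named beside the 9 are those of the lists that were called against OCsCtr (with an exception that is not reported here), known regulators and partners whatever their values, the 3 nearest genes in pattern (mean log2 CPM of at least 1, prior count 2), and relatives or copies that could share reads. Named after their values were seen were Lipa, Lgals3, Cd68, Ctsz, Cst7, Clec7a, Itgax and Axl of the signature, and Nceh1, Srebf1, Lpcat3, Rxrb, Cpt1a and the fatty acid oxidation genes. The fit was tested on simulated data. Alternatives were DESeq2, its size factors, upper-quartile scaling, no filter, fits of 2 groups, other fold change cut-offs, a replicate block, the gene length trend taken out, longest transcripts as lengths, each library left out, and, chosen after the data were seen, reads of near-identical copies added.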

Additional observations from a re-analysis of the deposited data

Results flagged for a closer look

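Gpnmb and Fabp5 differed between the stimulated groups. Tested directly as OCsEoS against OCsEo, the log2 fold change was -0.86 for Gpnmb and -0.63 for Fabp5, each lower in 4 of 4 OCsEoS libraries than in all OCsEo libraries, and both genes were chosen with this contrast known. Among the other lipid handling genes, 4 had an adjusted p under 0.05 in the same edgeR test, with log2 fold changes of -0.48 for Ctsb (adjusted p = 0.00123), -0.46 for Ctsd (adjusted p = 0.000107), -0.32 for Nceh1 (adjusted p = 0.0238) and -0.30 for Cd68 (adjusted p = 0.0271).

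Some single libraries lay far from the other 3 of their group by Dixon's criterion, in 5 of 78 groups of 4 libraries examined (26 genes), where chance flags about 1 group in 20. Among the 9 genes the only such value in 27 groups was Spp1 in replicate 2 of OCsCtr, at 325 CPM with the nearest at 371 CPM. Ctsd was high in replicate 4 of OCsCtr (2568 CPM, nearest 2244) and low in replicate 3 of OCsEo (3368 CPM, nearest 3583). Fabp3 was high in replicate 4 of OCsEo (5.16 CPM, nearest 3.08), and Lgals1 was low in replicate 2 of OCsEoS (1585 CPM, nearest 1905).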

How the results depend on the processing

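For the 9 genes in 3 comparisons, 540 log2 fold changes were recomputed under other settings, of which 533 stayed on the same side of both cut-offs, 6 passed them newly (Apoe in all cases) and 1 no longer did (Plin2), with no reversal of a call. The direction of small differences (Cd9, Cd63 and Lpl) turned in some settings without a call. For the 100 other lipid handling genes, 5955 values kept their side, 30 passed newly and 13 no longer did, with none reversed. With no fold change cut-off, the members called were 6 in OCsEoS (4 higher and 2 lower) and 4 between the stimulated groups, all lower in OCsEoS. With a cut-off of 1 they were 3 in OCsEo and 1 in OCsEoS, all higher, and 0 between the stimulated groups. Other lipid handling genes called with no cut-off were 29 in OCsEo (16 higher and 13 lower) and 40 in OCsEoS (15 higher and 25 lower). A cut-off of 1 left 5 in OCsEo and 4 in OCsEoS, all higher. Between the stimulated groups 4 were called with no cut-off, all lower in OCsEoS. Over all genes these cut-offs gave 2382 and 136 calls in OCsEo, 3151 and 160 in OCsEoS, and 81 and 21 between the stimulated groups, where no filter on low counts gave 100. Leaving out 1 library gave 17 to 62 calls over all genes between the stimulated groups against 52 (17 without replicate 3 of OCsEoS, 27 without replicate 2 of OCsEo and 34 without replicate 3 of OCsEo or 4 of OCsEoS), and 0 to 1 lipid handling genes, the 1 call arising without replicate 1 or 3 of OCsEo or 1 or 2 of OCsEoS. The cause of the changes without a filter or without 1 library was not tested.

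Replicate numbers are shared by the groups, but the deviations of same-numbered libraries correlated at -0.0435 to 0.0944 in 12 pairs, none over 0.1, so the numbers were not taken as pairs. With a replicate block the members called were 5, 2 and 2 in the 3 comparisons, the other lipid handling genes 14, 15 and 0, and all genes 854, 1108 and 67. The call gained among the lipid handling genes in OCsEoS was Abca1 (-0.64).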
